A study of Mus musculus with 2 samples.

Results

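The cytosolic ribosomal protein genes encode the protein components of the ribosome that translates nuclear mRNAs. They were taken by name from the GENCODE M21 annotation as the protein-coding genes called Rpl or Rps with a number and at most 1 further letter, Rplp0 to Rplp2, and Rpsa. This gave 80 genes of 21938 protein-coding genes, namely 46 of the large subunit, 31 of the small subunit and the 3 P proteins of the large-subunit stalk. Another 3 genes with matching names were annotated as something other than protein-coding and were left out. Of the 80 genes, 76 lie on autosomes and 4 on X. DNase-seq reads the cut sites of DNase I in chromatin, so that a peak marks DNA open to this nuclease and a footprint marks a short stretch that was cut less than its surroundings. The mice were male B6CASTF1/J hybrids, whose parents were C57BL/6J and CAST/EiJ, and the right cerebral cortex was taken at 2 months with no treatment named. There was 1 group of 2 libraries, replicate 1 from animal 5 and replicate 2 from animal 6, although the labels give the same donor record for both. With 1 group there was no contrast and no test, and values are given for each library beside those of all protein-coding genes.

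Ribosomes need nearly every one of these proteins in equal number, and the genes are scattered over the genome rather than clustered. Their promoters are known as compact promoters of highly transcribed housekeeping genes, in which transcription starts at a C within a pyrimidine tract and ETS-family factors such as GABP, SP1 and YY1 have been reported to bind. A few members are paralogs used in particular tissues, such as Rpl10l and Rpl39l in the testis and Rpl3l in striated muscle.

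Across the whole series, the smaller, stricter peak set held 91818 peaks in replicate 1, which also had 394531 footprints, and 75245 in replicate 2, which had 241645 footprints. Peak heights were larger in replicate 1, with a median height ratio of replicate 1 over replicate 2 of 1.49 across the 12882 protein-coding genes that had a promoter peak in both libraries. Markers of cortical excitatory neurons had a promoter peak at 6 of 6 genes in replicate 1 and 4 of 6 in replicate 2, and pan-neuronal markers at 4 of 4 in both. Markers of inhibitory neurons had one at 1 of 3, of astrocytes at 2 of 3 and of oligodendrocytes at 1 of 3 in each library. Endothelial markers had one at 1 and 0 of 3, and none was found for microglia (0 of 3), Hox genes of hindbrain and trunk (0 of 3) or liver (0 of 2). Of all protein-coding genes 63.4% had one in replicate 1 and 59.3% in replicate 2, so these short lists say little by count. Median heights at the excitatory markers with a peak were 2.22 and 1.78, below the 3.02 and 2.17 of all genes with one. The tissue holds several cell types, so that a promoter open in more cells and one opened more often per cell cannot be told apart.

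The following reference sequences (GRCm38.p6, the build called mm10) show the promoters on which the results below turn. They are printed 5′ to 3′ on the strand of the gene, with listed motif words in capitals, and positions count from the annotated start base as 0. The first 3 are the tallest promoters, chr5:115559357-115559476 (plus strand), chr11:97782428-97782547 (minus strand) and chr7:45128752-45128871 (minus strand), and the next 2 the lowest, chrX:37085393-37085512 (minus strand) and chrX:102189375-102189494 (minus strand). The last 2 carry a word under a footprint found in both libraries, chr11:68901495-68901594 (plus strand) for the word TCTCGCGAG and chr7:109518981-109519080 (plus strand) for an ETS word. No printed stretch holds more than 20 bases of an annotated exon.
Rplp0: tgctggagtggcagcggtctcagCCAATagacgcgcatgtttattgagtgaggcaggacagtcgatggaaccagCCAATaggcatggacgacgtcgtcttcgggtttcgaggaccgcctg
Rpl23: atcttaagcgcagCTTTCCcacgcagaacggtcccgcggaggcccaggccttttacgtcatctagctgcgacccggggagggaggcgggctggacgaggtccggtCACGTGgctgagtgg
Rpl13a: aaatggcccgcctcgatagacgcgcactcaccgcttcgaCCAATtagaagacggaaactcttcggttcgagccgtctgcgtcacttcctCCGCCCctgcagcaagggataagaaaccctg
Rpl39: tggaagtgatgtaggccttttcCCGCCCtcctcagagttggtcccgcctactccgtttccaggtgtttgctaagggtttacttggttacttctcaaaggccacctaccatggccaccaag
Rps4x: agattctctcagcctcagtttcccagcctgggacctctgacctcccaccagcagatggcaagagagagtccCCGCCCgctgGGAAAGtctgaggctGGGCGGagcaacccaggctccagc
Rpl26: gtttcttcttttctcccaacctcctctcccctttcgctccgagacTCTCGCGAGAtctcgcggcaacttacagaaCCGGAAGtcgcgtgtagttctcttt
Rpl27a: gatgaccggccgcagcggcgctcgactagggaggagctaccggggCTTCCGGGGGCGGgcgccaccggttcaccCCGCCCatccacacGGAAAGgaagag

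Nearly every ribosomal protein gene had an open promoter, and the same genes were open in both animals. A peak of the stricter set lay within 1000 bp of a transcript start in 77 of 80 genes (96.2%) in replicate 1, in replicate 2 and in both. Among all protein-coding genes the shares were 63.4% in replicate 1, 59.3% in replicate 2 and 58.7% in both. The tallest promoter peak of the 77 genes overlapped between the libraries in 77 of 77 cases, against 94.8% over all genes with a peak in both. No gene of the family had a promoter peak in 1 library only.

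The 3 genes without a promoter peak were Rpl10l, Rpl39l and Rpl3l, which are all paralogs known from testis or striated muscle. Within 1000 bp of their starts neither library listed any base under a false discovery rate of 0.05, whereas all of the other 77 genes had listed bases. Over all protein-coding genes 69.2% and 66.1% had such bases. The paralog Rps27l, which is known as a p53-responsive relative of Rps27, did have a promoter peak in both libraries, at heights of 3.07 and 1.70, among the 8 lowest of the family. Rps27 itself stood at 4.10 and 2.84. The closed promoters did not all lack the motif words of the family, since Rpl39l held the ETS word CCGGAA 4 times and CGGAAG 2 times.

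Open promoters of the family were tall. The height of a peak is the authors' signal value, whose scaling these sources do not state. The tallest promoter peak of each of the 77 genes had a median height of 4.92 in replicate 1 (range 1.63 to 10.2) and 3.25 in replicate 2 (range 1.09 to 6.80). All protein-coding genes with a promoter peak had medians of 3.02 and 2.17. Of the 77 genes, 40 and 42 stood above the 75th percentile of all genes in replicates 1 and 2. Above the 90th percentile stood 17 (22.1%) and 18 (23.4%), where by construction 9.98% and 9.92% of all genes stood. Below the median of all genes were 8 and 10. The subunits had like medians, 4.86 and 3.20 over the 43 open genes of the large subunit and 4.61 and 3.33 over the 31 of the small subunit.

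**Figure D1:**
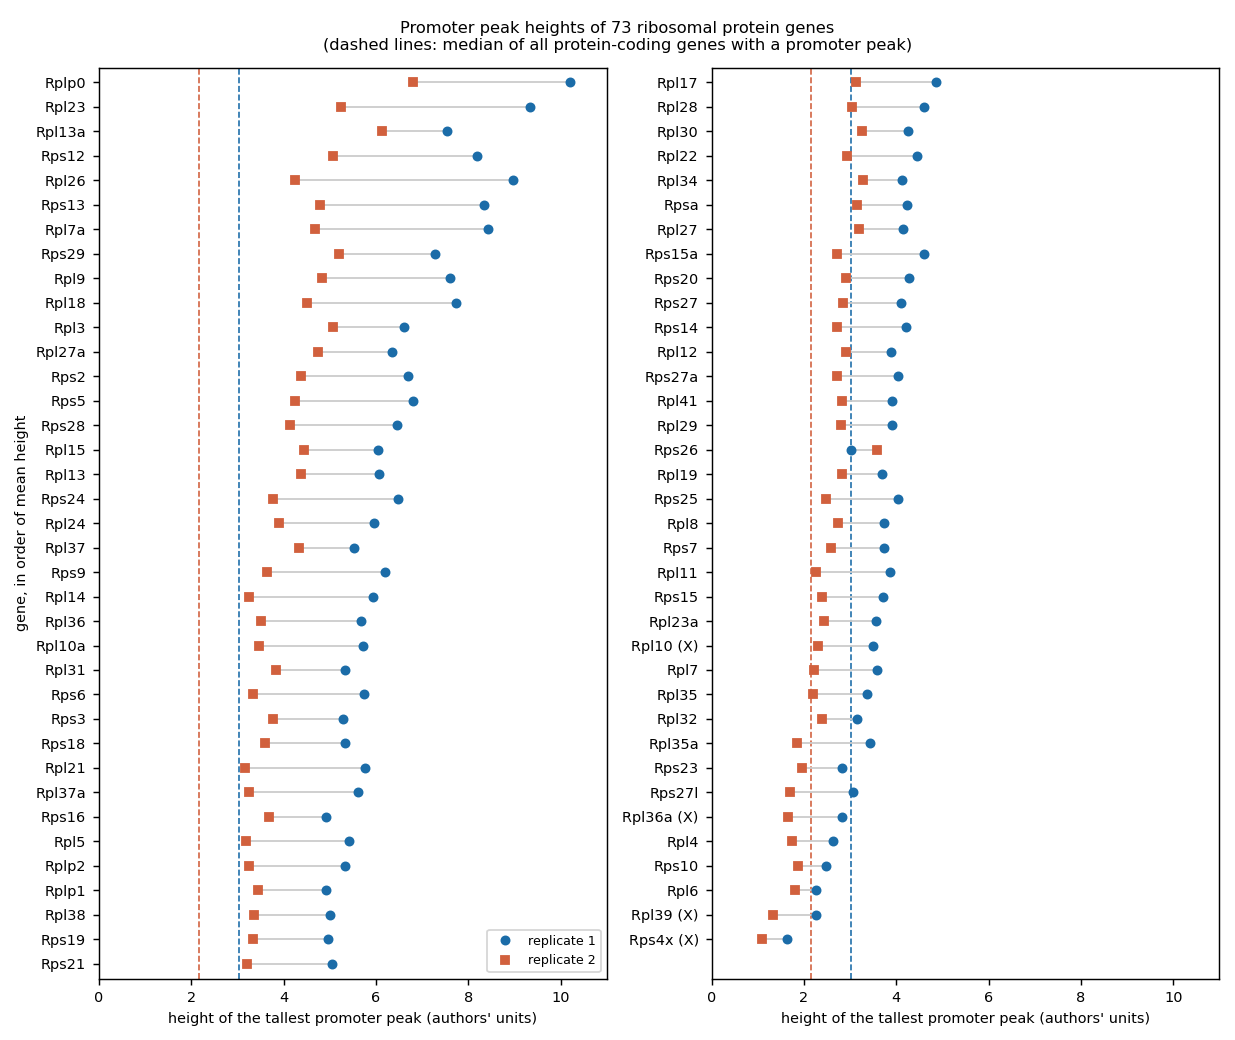
Height of the tallest promoter peak (horizontal axis, authors' units) of 73 of the 77 ribosomal protein genes with a promoter peak, in order of mean height, with replicate 1 as circles and replicate 2 as squares. Dashed lines mark the medians of all protein-coding genes with a promoter peak, 3.02 and 2.17, and Rps26 is the only gene plotted whose square lies to the right of its circle.

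Rplp0 had the tallest promoter peak of the family. It encodes the stalk protein to which the acidic P proteins bind, and its peak lay on chromosome 5 from 115559281 to 115559500 with heights of 10.2 in replicate 1 and 6.80 in replicate 2. Its partners on the stalk, which help to recruit elongation factors, were less open, Rplp1 at 4.93 and 3.44 and Rplp2 at 5.34 and 3.25. Rpsa, a small-subunit protein also described as a laminin receptor precursor, stood at 4.24 and 3.14. Rplp0 was thus above the other 3 in both libraries, and the latter lay close together.

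Rpl23, a large-subunit protein that can bind the ubiquitin ligase Mdm2, followed at 9.34 and 5.24 on chromosome 11 from 97782341 to 97782540. Rpl13a, also known for a role in translational silencing outside the ribosome, had heights of 7.53 and 6.14 on chromosome 7 from 45128741 to 45129120. It ranked second in replicate 2 but lower in replicate 1, where 8 other members were taller. Rps12 stood at 8.18 and 5.08 and Rpl26, a protein at the exit of the nascent chain that is modified by UFM1, at 8.97 and 4.25. Rps13 (8.34 and 4.79), Rpl7a (8.42 and 4.67) and Rps29 (7.28 and 5.19), a small zinc-binding protein, complete the 8 tallest. In replicate 1 their percentiles among all protein-coding genes with a promoter peak ran from 95.8 for Rps29 to 99.6 for Rplp0. In replicate 2 the range was from 90.4 for Rpl26 to 99.7 for Rplp0.

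The lowest open promoter was that of Rps4x, a small-subunit gene on X, at 1.63 and 1.09 on chromosome X from 102189221 to 102189480. Rpl39, which encodes a small protein lining the exit tunnel, came next by the mean of the libraries, at 2.27 and 1.33 on chromosome X from 37085141 to 37085600. Rpl6 (2.25 and 1.81), Rps10 (2.47 and 1.87), a gene mutated in Diamond-Blackfan anaemia, and Rpl4 (2.63 and 1.75), whose protein forms part of the tunnel constriction, followed. The Rpl4 peaks were centred at -454.5 and -354.5 bp, and that of replicate 1 covered the start of Zwilch, so its height cannot be assigned to either gene. Rpl36a reached 2.82 and 1.66. Each of these genes, and Rps27l, was below the lower quartile of the family in both libraries (3.73 and 2.71).

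The 4 genes on X were low as a group. Rpl10, a large-subunit protein needed for the last steps of subunit maturation, had 3.50 and 2.30, Rpl36a 2.82 and 1.66, Rpl39 2.27 and 1.33 and Rps4x 1.63 and 1.09. All 4 were below the median of the family in both libraries, and 10 of the 73 open autosomal members were lower than Rpl10 in each library. The same direction held for all protein-coding genes with a promoter peak, whose median height on X was 1.63 and 1.18 against 3.10 and 2.20 on autosomes. A male carries 1 copy of X, and the part of copy number in these heights was not tested.

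Between the animals the members kept much the same order. Across the 77 genes, which are not independent replicates, Spearman's rho between the libraries was 0.923, and Pearson's r of log10 heights was 0.932, against 0.968 and 0.967 across all 12882 genes, which span a wider range of heights. Replicate 1 was higher in 76 of 77 genes, by a median factor of 1.5, near the 1.49 of all genes. The exception was Rps26, a small-subunit protein at the mRNA exit channel, at 3.03 in replicate 1 and 3.59 in replicate 2, a ratio of 0.845. Its percentile among all genes was 50.2 in replicate 1 and 82.2 in replicate 2. The other low ratios were those of Rpl13a (1.23) and Rpl6 (1.24). At the other end stood Rpl26 with a ratio of 2.11, Rpl35a (1.87), Rpl14 (1.83) and Rpl21 (1.81). With 1 library per animal, the spread of a gene's ratio between repeat libraries of the same animal is unknown.

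The tallest peaks of the family were about as wide as those of all genes, and most covered a start. The tallest promoter peak of the family had a median width of 240 bp in replicate 1 and 260 bp in replicate 2, close to the 240 and 240 bp of all genes. It covered an annotated start in 74 of 77 genes (96.1%) and in 69 of 77 (89.6%), where all genes with a promoter peak gave 71.1% and 72.4%. Its centre lay upstream of the nearest start in 54 and 55 of 77 genes, with a median offset of -22.5 and -23.5 bp, and -34.5 and -37.5 bp over all genes. With the 5′ end of the gene as the only start, the median offset of the family was 0.5 bp in replicate 1, on the other side of the start, and -1.5 bp in replicate 2. Disregarding the direction, the median distance was 36.5 and 32.5 bp in the family and 65.5 and 63.5 bp over all genes. The clearest outliers were Rpl10 and Rpl4. The Rpl10 peaks were centred at -461.5 and -471.5 bp and those of Rpl4 at -454.5 and -354.5 bp, and in replicate 1 the Rpl4 peak covered the start of the kinetochore gene Zwilch.

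Peaks of the stricter set downstream of the start were less common in the family than elsewhere. From -100 to -1 bp, 94.8% of the family and 78.4% of all genes with a promoter peak were covered by a peak in replicate 1, and 92.6% and 77.9% in replicate 2. From 500 to 599 bp downstream the shares were 6.86% and 19.5% in replicate 1 and 2.58% and 13.7% in replicate 2. The bases listed under a false discovery rate of 0.05, a looser measure, did not follow this near the start: from 200 to 299 bp downstream they covered 100% of the family and 85.5% of all genes in replicate 1, and 94.1% and 75.7% in replicate 2. From 700 to 799 bp the family was lower by this measure too, with 28.7% and 42.8% in replicate 1 and 14.6% and 31.1% in replicate 2. More than 1 separate promoter region was found at 30 of 77 members (39%) in replicate 1 and 23 (29.9%) in replicate 2, compared with 58.1% and 50.2% of all genes, and at 17 members in both. Regions were counted over the windows of all starts of a gene, which span more bases where starts lie far apart. The part of this in the difference was not tested. The 5 tallest of those 17 were Rps29, Rpl18, Rpl3, Rps24 and Rps9. Rpl3, a protein that reaches to the peptidyl transferase centre, had most in replicate 1, with 5 regions, and with 3 in replicate 2 it was level with other members.

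**Figure D2:**
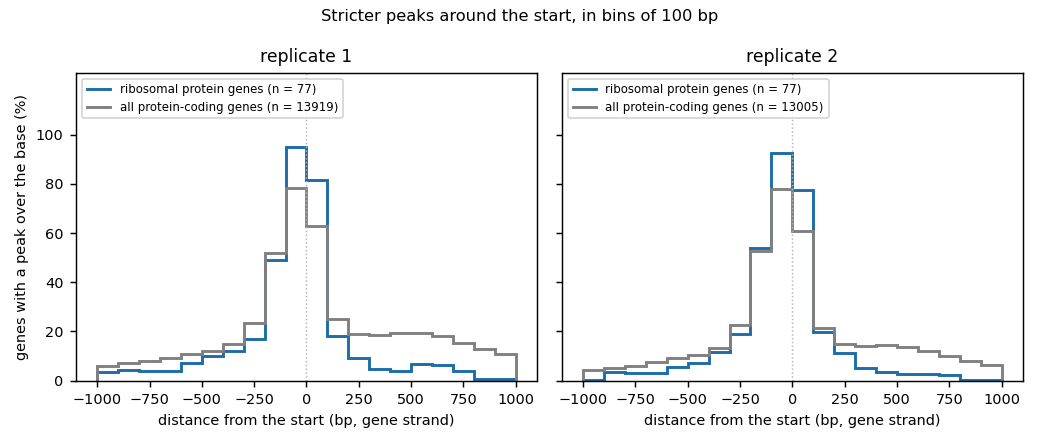
Share of genes with a peak of the stricter set over a base (vertical axis, percent) by distance from the start in bins of 100 bp, for the 77 ribosomal protein genes and all protein-coding genes with a promoter peak in that library. The lines cross near the start: the family is above all genes from -100 to 99 bp and below them from 100 bp downstream on.

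Many members have several annotated starts, and the one nearest to the tallest peak was not always the outermost. The number of starts ran from 1 to 14, and in 56 of 77 open genes the start nearest to the tallest peak was the 5′ end of the gene. In 7 genes it lay over 1000 bp further downstream. These counts were not made over all protein-coding genes, so they do not set the family apart. The median number of starts was 6 in the family and 5 over all genes with a promoter peak. For Rpl18 and Rps24 this internal start was 2614 and 3556 bp from the 5′ end, with heights of 7.74 and 4.52 at Rpl18 and 6.48 and 3.78 at Rps24. The others were Rpl3 (8462 bp), Rps14 (27498 bp), Rpl17 (1919 bp), Rps2 (1947 bp) and Rps10 (1425 bp). When only the 5′ end counted as the start, 74 and 73 members kept a promoter peak. Rpl17, Rps10 and Rps2 lost it in both libraries and Rps14 in replicate 2. Rpl3, Rpl18 and Rps24 kept a peak at the 5′ end in both libraries and Rps14 in replicate 1, so their outermost starts were open too.

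A neighbouring gene shared the opening at some members. In 15 of 77 genes (19.5%) the tallest peak of replicate 1 lay within 1000 bp of the start of another protein-coding gene, near the 20.6% of all genes, and in 14 of these the neighbour was on the other strand. The 6 tallest were Rpl7a with the Mediator subunit gene Med22, Rpl9 with the lipoic acid synthetase gene Lias, Rpl18 with the sphingosine kinase gene Sphk2, Rps28 with the respiratory complex I gene Ndufa7, Rpl15 with Nkiras1 and Rps18 with the vesicle-tethering gene Vps52. In each of the 6 the peak of replicate 1 covered the start of the neighbour too, so its height cannot be assigned to either gene. Rpl9 stood at 7.61 and 4.83, Rps28 at 6.45 and 4.15, Rpl15 at 6.05 and 4.44 and Rps18 at 5.33 and 3.60.

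Footprints were present at every open promoter of the family. At least 1 footprint lay within 250 bp of a start in 77 of 77 genes in each library, where 95.3% of all genes with a promoter peak had one in replicate 1 and 93.5% in replicate 2, so the share is close to the background. The mean number was 8.14 per gene in replicate 1 (range 3 to 14) and 5.90 in replicate 2 (range 1 to 14), against 7.06 and 5.01 over all genes. Taller peaks carried more footprints in general. Among genes above the 75th percentile of heights the means were 7.98 for the family and 8.34 for all genes in replicate 1, and 6.33 and 6.38 in replicate 2. By the mean of the libraries, most footprints were found at Rps27a, which is made as a fusion with ubiquitin (12 and 14), Rplp2 (13 and 10), Rpl35a (14 and 7), Rpl30 (10 and 10), Rps24 (11 and 9) and Rps19, the gene most often mutated in Diamond-Blackfan anaemia (10 and 10). The fewest in replicate 2 were at Rpl32, with 1, against 8 in replicate 1.

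Footprints of the family recurred between the animals. Of 627 footprints in replicate 1, 337 (53.7%) shared a base or more with a footprint of the other library, and so did 361 of 454 (79.5%) in replicate 2. Over all genes the shares were 45.5% and 72.5%. The number of footprints differs between the libraries, which limits the first share. Footprints had a median width of 11 and 10 bp, the same as over all genes. Inside a peak of the stricter set lay 69.5% of the footprints of the family in replicate 1 and 82.4% in replicate 2. Over all genes 72.5% and 81.5% did, so the family was near the background. Footprints were densest around the start. From -20 to -1 bp, 44.8% of the family and 31.8% of all genes were under a footprint in replicate 1, and 31.7% and 24.4% in replicate 2. From 20 to 39 bp downstream the values were 32.3% and 20.8% in replicate 1 and 27.3% and 13.9% in replicate 2.

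**Figure D3:**
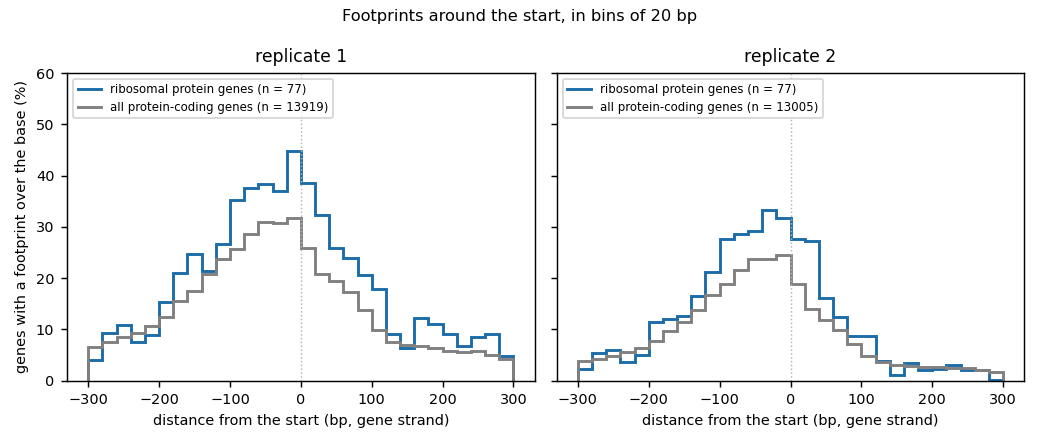
Share of genes with a footprint over a base (vertical axis, percent) by distance from the start in bins of 20 bp, for the 77 ribosomal protein genes and all protein-coding genes with a promoter peak in that library. In both libraries the family lies above all genes between -100 and 99 bp, and the highest bins reach 44.8% in replicate 1 and 33.3% in replicate 2.

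The promoters of the family were rich in ETS words, and a rarer palindrome was also more frequent than elsewhere. Words were searched on both strands from 250 bp before to 50 bp after the start nearest to the tallest peak, with overlapping matches of a word counted once. A match is a description of the letters and not a bound site. The ETS core words CGGAAG and CCGGAA, which overlap each other where they form a longer core, were the most frequent. CGGAAG occurred in 53 of 80 promoters (66.2%, exact 95% interval 54.8 to 76.4%), against 21.7% of all protein-coding promoters and 31.8% of those with a peak in both libraries. CCGGAA occurred in 44 (55%), against 19.2% and 28.7%. Either was found in 60 (75%), against 27.5% and 39.8%, and among all genes above the 75th percentile of heights of replicate 1 the share was 49.3%. Members with either word had a median height of 4.92 and 3.26, and those without it 5.13 and 3.16, so the medians with and without a word differed in opposite directions in the libraries. The small subunit had either word in 26 of 31 genes (83.9%) and the large subunit in 32 of 46 (69.6%).

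The word TCTCGCGAG, part of a palindrome known to be bound by the BTB-domain factor Kaiso (Zbtb33), was rare in promoters at large and less rare here. It was in 10 of 80 promoters (12.5%, exact 95% interval 6.16 to 21.8%), against 0.998% of all promoters and 1.58% of open ones. They included Rpl4, Rpl10a, Rpl12, Rpl17, Rpl26, Rpl27a, Rps6 and Rps28, and 9 of the 10 also held an ETS word, as did 109 of the 203 open promoters with the palindrome. In 5 of the 10 the word began within 50 bp before the start, as did 85 of its 220 matches in open promoters. It lay under a footprint, extended by 5 bp on each side, in both libraries in 6 of 10 cases (60%), among them Rpl12, Rpl17, Rpl26, Rps6 and Rps28, and in 50% of 220 occurrences in all open promoters. At Rpl26, printed above, the word starts at -43 and the footprints ran from -52 to -24 bp in replicate 1 and from -52 to -29 bp in replicate 2. Members with the word had a median height of 5.73 and 3.42, those without it 4.61 and 3.20, and both spanned much of the range of the family.

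**Figure D4:**
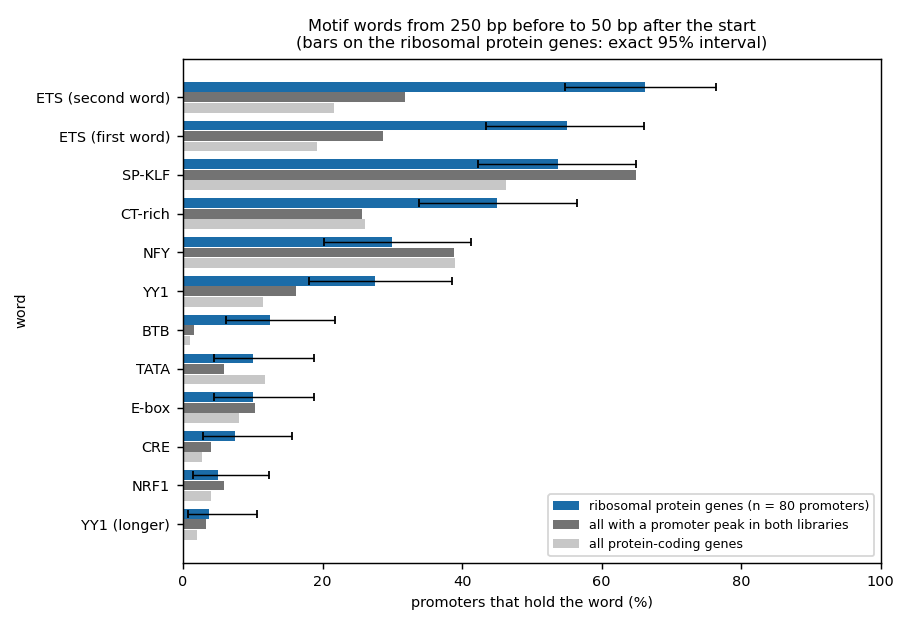
Share of promoters that hold each motif word (horizontal axis, percent) in the 80 ribosomal protein genes, in all protein-coding genes with a promoter peak in both libraries and in all protein-coding genes. Error bars are exact 95% binomial intervals, which cover counting error only, and the family exceeds both others by most for the second ETS word (CGGAAG) and the first (CCGGAA), followed by the CT-rich word (CTTTCC).

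The remaining words are given with the shares of all and of open promoters. The YY1 core ATGGCG was in 22 promoters (27.5%), against 11.5% of all and 16.2% of open ones, while its longer form AAGATGGCG was in 3 (3.75%), against 2.02% and 3.28%. The CT-rich word CTTTCC was in 36 (45%), against 26.1% and 25.6%, and 15 of its matches began between 0 and 49 bp. The SP and KLF word GGGCGG was in 43 (53.8%), between the 46.3% of all and the 64.9% of open promoters. CCAAT, the word of NF-Y, was in 24 (30%), against 39% and 38.9%. The E-box CACGTG was in 8 (10%), against 8.01% and 10.3%, and the NRF1 word GCATGCGC in 4 (5%), against 4.06% and 5.81%, so both were near the share of open promoters. The cyclic AMP response element TGACGTCA was in 6 (7.5%), against 2.74% of all and 4.01% of open promoters, and 5 of the 6 matches (83.3%) lay under a footprint in both libraries, at Rpl13, Rpl18, Rpl27a, Rps9 and Rps29. Of the 534 matches in open promoters 475 (89.0%) did, so the share in the family is near the background.

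The word TATAAA was in 8 promoters (10%), against 11.7% of all and 5.92% of open ones. Of its 9 matches 6 lay under a footprint in both libraries (66.7%), where 11.3% of 808 matches in open promoters did. They included those at Rplp0 and Rps2 (both 17 bp downstream of the annotated start), Rpl3 (23 bp), Rps28 (37 bp) and Rpl36a (3 bp). The median position of TATAAA was 19.5 bp in the family and -139 bp in all open promoters. Over all genes with a promoter peak, footprints covered 26.0% from 0 to 19 bp and 20.8% from -140 to -121 bp in replicate 1. In replicate 2 they covered 18.9% and 13.8%. The part of position in the difference between the shares was not tested, and the share of the family rests on 9 matches. The annotated start is the outermost base of a transcript model and need not be the base where most transcripts begin.

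The annotated start base was C in 30 of 80 members (37.5%), against 17.3% of all protein-coding genes. Genes without a promoter peak were given their 5′ end as the start. The start base and the bases after it were not counted over open promoters alone. A C followed by 4 pyrimidines stood at 9 (11.2%), against 2.26% of all. These included Rpl4, Rpl32, Rpl36, Rpl37, Rpl37a, Rps10 and Rps21. The heights of these 7 ran from 2.47 at Rps10 to 5.67 at Rpl36 in replicate 1, and from 1.75 at Rpl4 to 4.32 at Rpl37 in replicate 2. The promoter windows had a median GC content of 56.3% in the family, 56.3% over all genes and 61.3% over open promoters, with medians of 22, 14 and 21 CpG.

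The letters of the printed promoters can be set beside the footprints. At Rplp0 both CCAAT words were under footprints in both libraries, the outer one from -108 to -69 bp in replicate 1 and from -105 to -69 bp in replicate 2. The inner one lay under footprints from -43 to -16 bp and from -43 to -32 bp. At Rpl23 a shared footprint from -65 to -32 bp and from -64 to -34 bp held none of the listed words. Another ran from -11 to 22 bp and from -2 to 21 bp. Extended by 5 bp, it covered the E-box at -5 and a GGGCGG word at 8 that runs beyond the printed bases. At Rpl27a, printed because its ETS word was covered, the footprint over that word ran from -125 to -103 bp and from -123 to -104 bp. Across the family a footprint in both libraries covered 30 of 82 CGGAAG matches (36.6%) and 18 of 56 CCGGAA matches (32.1%). In open promoters the shares were 28.5% and 29.2%. In the printed stretch of Rpl39 no footprint of one library overlapped one of the other, and at Rps4x they shared the bases from -96 to -88 bp.

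Related genes outside the name rule were open as well. All 7 ribosomal protein genes with other names had a promoter peak in both libraries, with median heights of 5.83 and 4.27. Fau, which encodes the precursor of a small-subunit protein, stood at 7.60 and 5.19, and Rps3a1 at 6.72 and 4.65. Rack1, the scaffold on the small subunit, was lower at 3.92 and 2.56. Of these 7 genes 6 held an ETS word. Genes of other mRNAs with a terminal pyrimidine tract, most of them translation factors, had a peak at 17 of 17 in both libraries with medians of 5.92 and 4.01, among them Eef1g (6.97 and 5.25) and Npm1 (6.23 and 5.35). This list shares 3 genes with the one before, Fau and Rack1 among them, and 8 of its 17 genes held an ETS word, which is near the 39.8% of open promoters. Ribosome assembly genes had a peak at 20 of 20, with medians of 4.30 and 2.95, among them the box C/D ribonucleoprotein gene Nop56 (8.20 and 5.32) and Rrs1 (6.86 and 5.58), and 12 of the 20 held an ETS word. All 8 genes of factors reported at ribosomal protein promoters were open, from Sp1 (8.56 and 6.83) to Myc (1.89 and 1.24). Beside these lists, 63.4% and 59.3% of all protein-coding genes had a promoter peak, with median heights of 3.02 and 2.17.

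Ribosomal protein genes have left many processed pseudogenes, copies of the mRNA without its promoter. By name, 286 pseudogenes of these genes lay away from the starts of protein-coding genes. Of these, 13 (4.55%) had a peak within 1000 bp of their 5′ end in replicate 1 and 7 (2.45%) in replicate 2. All other processed pseudogenes gave 3.58% and 2.89%, so the shares were near the background. Processed copies of these genes under other names would be counted in that background. Within 250 bp there were 0 of 286 in each library, against 1.37% and 0.928% of 9804 others. The tallest was at Rpl34-ps1 on chromosome 6, at 2.66 and 1.69, centred 730.5 bp from its 5′ end and outside its body. Copies matter for where reads can be placed. Words of 31 bases from the tallest promoter peaks of members occurred in 1 copy on the 21 chromosomes in a median of 97.4% of cases in replicate 1 and 97.6% in replicate 2, with lowest shares of 72.1% at Rps28 and 70% at Rpl29. In the exons of members the median was 54.2%, and 33 of 80 genes were under 50%, with none in 1 copy at Rpl36. How reads with several placements were treated is not stated in these sources, and its part in the pseudogene counts was not tested.

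Away from the promoter windows, few members had a peak. A peak of the stricter set overlapped the gene outside these windows at 4 of 80 members in each library, against 40.3% of all protein-coding genes in replicate 1 and 36.4% in replicate 2. Members are short, with a median gene length of 3328.5 bp against 17425 bp, and the part of length in this difference was not tested. Rpl3 held the tallest such peak, on chromosome 15 from 80088761 to 80088900 in replicate 1, at 5.62 in replicate 1 and 2.80 in replicate 2. The start of Rpl3 nearest to its tallest promoter peak lies 8462 bp downstream of its annotated 5′ end. The peak outside the windows lay between these 2 starts. Rpl26 had one on chromosome 11 from 68904821 to 68905020 in replicate 1 (2.93 and 1.37). The peak at Rps13 (0.889 and 0.783) lay across the 3′ end of the gene and reached beyond it. The 5′ end of Rps14 lies far upstream of the start nearest to its tallest promoter peak. Rps14 held 5 peaks outside the windows in replicate 1 and 3 in replicate 2, the tallest at 2.76 and 1.44.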

How the data were processed

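DNase-seq libraries of 2 animals were used. Per the text deposited with each sample, a library's files came from its own filtered mm10 alignments, so peaks were called per library. The aligner, callers and thresholds are not stated in these sources, and without the depth the precision of a height is unknown. Peak height is a signal value deposited by the authors for each peak. The q-value per base was deposited by the authors for bases under 0.05, and every footprint was deposited with a p-value column of 0.01, taken to be a threshold. The smaller of the pair of peak sets of each library was used. The reference is C57BL/6J, and the alleles of the cross were not separated.

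All coordinates lay within GRCm38.p6, and 484 of 484 transcript sequences of the members read from that genome matched GENCODE M21. A promoter peak touched a window of 1000 bp on each side of any transcript start. Overlaps, heights, offsets and words were tested on simulated data. Python 3.11.15, numpy 2.4.6, scipy 1.17.1, pysam 0.24.0, numba 0.67.0 and bedtools 2.31.1 were used. The members, lists and words were chosen with earlier results of these data known. Named genes were those without a peak or with a peak in 1 library, the 8 tallest and 8 lowest, the 4 highest and 4 lowest height ratios, the 5 with most footprints, members on X, the stalk proteins and Rpsa, paralogs, the 6 tallest shared promoters and 6 with several regions. Further genes, such as those that hold a given word, were named after their values were seen. Alternatives covered the window, the peak set, the start, footprint rules, the word window and each library left out. Some genes that these rules name are not reported here, and they are left out of the plot of heights.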

Additional observations from a re-analysis of the deposited data

How the results depend on the processing

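Of 68 alternative values, 61 were labelled as kept, 6 moved and 1 reversed. A kept value held its direction and stayed within 1.5 times the count, within the interval of the share or within the spread between libraries. For median heights this spread was 1.18, and it includes the difference in scale between the libraries (median ratio 1.49 over all genes). In replicate 2 a fall to 2.17, the median of all genes, would still have been labelled as kept, so the label cannot test heights. The medians themselves moved little. Replicate 1 had 4.61 with the 5′ end as the only start and 4.92 in every other run. Replicate 2 had 3.25 or 3.26 throughout. The count of 77 members with a promoter peak in both libraries was 73 to 77 under every alternative run, and 77 to 77 with either library left out. With the 5′ end of the gene as the start, the share with either ETS word was 62.5% and that with CCGGAA 40%, where 25.3% of all promoters held either word, and the median peak offset was 0.5 bp in replicate 1, which reversed it, and -1.5 bp in replicate 2. From 100 bp before to 50 bp after the start, CTTTCC was in 32.5% of members. Within 250 bp of their start, 0 and 0 of the 286 pseudogenes named after these genes had a peak. The narrower windows and the outermost starts hold other bases or fewer peaks by construction. No paired analysis was possible because there was 1 group. Depth is unknown, so how far it limits low peaks and footprints cannot be given.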
